A study of Mus musculus with 7 samples.

Results

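*Mylk4*, *Klf9* and *Coq10b* are genes whose daily rhythm in skeletal muscle has been linked to the muscle clock, and the peaks of BMAL1, REV-ERBα and RNA polymerase II (RNAP2) at these 3 genes, of 21938 protein-coding genes, are described here. A peak was counted for a gene when it overlapped the gene body or came within 10 kb of any annotated transcription start site (TSS) of that gene, which is called the window of the gene. By this rule 150 of the 527912 peaks of the series belonged to the 3 genes, with 122 at *Mylk4*, 14 at *Klf9* and 14 at *Coq10b*. The data are ChIP-seq peak lists, in which DNA recovered with an antibody was sequenced and compared with input DNA. All animals were wild-type male C57BL/6J mice, 5 months old, kept on standard chow under a 12:12 light:dark cycle, and the tissue was whole gastrocnemius, a mixed calf muscle. BMAL1 and RNAP2 were each mapped in 2 replicates collected at ZT 4, and REV-ERBα in 2 collected at ZT 8 (ZT counts the hours from lights on), and no mutant or second time point was part of the ChIP-seq. Factor and antibody therefore cannot be told apart when lists of different factors are compared, nor can time of day in comparisons with REV-ERBα.

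BMAL1 pairs with CLOCK and binds E-boxes, of which CACGTG is the canonical form, to switch on clock genes and many tissue-specific outputs. REV-ERBα, the product of *Nr1d1*, is a nuclear receptor that binds AGGTCA-type sites and represses transcription, and it is itself switched on by BMAL1. *Mylk4* encodes a member of the myosin light chain kinase family. *Klf9* encodes a Krüppel-like zinc finger transcription factor that responds to glucocorticoids, and *Coq10b* encodes a mitochondrial protein that binds coenzyme Q and is needed for its work in the respiratory chain.

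*Mylk4* (ENSMUSG00000044951) is on chromosome 13 from 32700834 to 32783954 on the minus strand of mm10 and has 4 annotated TSSs. *Klf9* (ENSMUSG00000033863) is on chromosome 19 from 23141226 to 23168134 on the plus strand, with 2 TSSs. *Coq10b* (ENSMUSG00000025981) is on chromosome 1 from 55052770 to 55072702 on the plus strand, with 3 TSSs. The windows were 93121, 36909 and 29933 bp long. None held another protein-coding gene. The *Klf9* window held the lincRNA gene 2410080I02Rik from 23134900 to 23135717, and an antisense gene to be experimentally established, E330011M16Rik, spans the *Coq10b* promoter from 55051319 to 55053112. Peaks carry no strand, so those at the *Coq10b* promoter cannot be assigned to one of these overlapping genes.

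The sequences below are the sites that the results turn on, with the matched motif in capitals, from mm10 (GRCm38). The 250 bases before the RefSeq start of *Coq10b*, chr1:55052520-55052769 on the plus strand, are shown because they carried its only BMAL1 region, and the capitals mark the E-box CACGTG. The *Klf9* promoter site, chr19:23140876-23141076 on the plus strand, is centered on the strongest REV-ERBα summit there, and its capitals mark CAGCTG and CACGTG, which lie 1 base apart. The *Klf9* upstream site, chr19:23134820-23135070 on the plus strand, is centered on the BMAL1 summit of replicate 1 and its capitals mark AACGTG, the noncanonical E-box CACGTT read on the other strand. For *Mylk4*, the 250 bases before its RefSeq start, chr13:32783965-32784214 on the minus strand, and an intron site, chr13:32748302-32748502 on the minus strand, centered on the strongest BMAL1 summit of the gene, are shown with the core motif GGTCA in capitals (TGACC where it reads on the other strand).
Coq10b promoter: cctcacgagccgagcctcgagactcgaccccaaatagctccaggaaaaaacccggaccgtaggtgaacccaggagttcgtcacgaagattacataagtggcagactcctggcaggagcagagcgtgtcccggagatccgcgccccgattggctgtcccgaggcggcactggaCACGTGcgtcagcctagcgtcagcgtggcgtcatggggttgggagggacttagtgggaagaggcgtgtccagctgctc
Klf9 promoter: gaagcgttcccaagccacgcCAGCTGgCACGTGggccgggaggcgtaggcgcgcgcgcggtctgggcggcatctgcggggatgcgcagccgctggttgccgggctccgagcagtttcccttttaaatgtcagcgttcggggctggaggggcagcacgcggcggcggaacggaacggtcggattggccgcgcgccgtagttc
Klf9 upstream site: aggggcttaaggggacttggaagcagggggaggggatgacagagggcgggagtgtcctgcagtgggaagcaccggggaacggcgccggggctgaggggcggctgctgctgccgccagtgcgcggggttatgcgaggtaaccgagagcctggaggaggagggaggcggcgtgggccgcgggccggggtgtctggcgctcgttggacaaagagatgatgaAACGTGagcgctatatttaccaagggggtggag
Mylk4 promoter: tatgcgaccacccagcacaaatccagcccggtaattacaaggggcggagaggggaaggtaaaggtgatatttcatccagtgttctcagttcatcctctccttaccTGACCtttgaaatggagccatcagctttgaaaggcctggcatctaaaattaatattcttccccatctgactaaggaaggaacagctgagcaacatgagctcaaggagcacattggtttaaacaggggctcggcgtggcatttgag
Mylk4 intron site: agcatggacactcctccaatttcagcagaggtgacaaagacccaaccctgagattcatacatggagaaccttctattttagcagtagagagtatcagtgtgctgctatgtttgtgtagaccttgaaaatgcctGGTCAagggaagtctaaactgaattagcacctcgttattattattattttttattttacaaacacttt

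The lists differ in length, from 28881 peaks in REV-ERBα replicate 1 to 177669 in BMAL1 replicate 2, and most of their peaks are weak. Only 36 to 92 peaks per BMAL1 list, 324 and 423 per REV-ERBα list, and 3622 to 10997 per RNAP2 list had a q-value under 0.05. The strength of a peak is given as its −log10 p. The reads behind each peak are unknown, so no counting interval is given. With 2 replicates per factor no test between animals was made, and both values are given instead. The RNAP2 lists matched skeletal muscle, since the strongest RNAP2 peak at 5 muscle genes (*Ckm*, *Acta1*, *Myh4*, *Tnnt3* and *Mylpf*) ran from 36.6 to 131 in replicate 1 and from 10.3 to 39.9 in replicate 2. Among genes of other cells, *Adipoq* (0 and 1.45), *Alb* (3.97 and 2.60) and *Pecam1* (3.21 and 2.60) were low, *Col1a1* had 16.0 and 5.52, and *Cd68* had 27.7 and 9.47. The *Cd68* values equal those of its neighbours *Eif4a1* and *Senp3* and so cannot be assigned to *Cd68* alone.

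Peaks of both replicates of a factor that overlapped by at least 1 bp were merged, and a merged stretch with a peak in each replicate is called a region. By this rule the 3 genes differed in kind. *Mylk4* had 7 BMAL1, 22 REV-ERBα and 3 RNAP2 regions. *Klf9* had 0 BMAL1, 2 REV-ERBα and 2 RNAP2 regions, and *Coq10b* had 1 BMAL1, 0 REV-ERBα and 1 RNAP2 region. Among all protein-coding genes, 6.81% had a BMAL1 region in their window, 4.44% a REV-ERBα region and 41.1% an RNAP2 region. A long gene offers more room, and among the 3115 genes with a window at least as long as that of *Mylk4* the shares were 21.4%, 7.26% and 55.5%. A merged site that drew peaks from 3 or 4 of the BMAL1 and REV-ERBα lists, called a shared site, was found at 1.62% of all genes and 2.99% of the long ones. *Mylk4* had 12 of them, *Klf9* 1 and *Coq10b* 1. The genes were picked with such sites known, so the counts describe them and are no evidence of their own.

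*Coq10b* had a single narrow BMAL1 region at its promoter. The BMAL1 peaks there had strengths of 10.1 (replicate 1) and 5.99 (replicate 2), at 4.43-fold and 3.78-fold enrichment over input. The peak of replicate 1 had a −log10 q of 4.74 and that of replicate 2 of 0.618, so with a −log10 q of at least 1.3 asked of both lists the region was lost (0 regions). Peaks as strong as these made up 0.104% of the first list and 0.0355% of the second. By the lower of both replicates the region was number 24 of the 2742 BMAL1 regions of the genome, and *Coq10b* was number 26 among the 1494 genes with a BMAL1 region. The region was 578 bp wide, from 55052260 to 55052837, and the BMAL1 summits lay at −162 and −187 bp from the first TSS. The E-box CACGTG printed above starts at −78 bp, which is 84 and 109 bp downstream of these summits. A second hexamer of the general E-box form CANNTG (N being any base), CAGCTG, starts at −9 bp. CACGTG was found within 100 bp of the strongest summit in 2.55% of all BMAL1 regions, and in 7.15% of 32851 RefSeq promoters of 300 bases, while CAGCTG was found in 16.3% of these promoters.

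REV-ERBα was seen at the *Coq10b* promoter in 1 replicate only. The peak of replicate 1 had a −log10 p of 6.23 and a q-value under 0.05, and its summit lay 27 and 2 bp from the BMAL1 summits of replicates 1 and 2. Peaks this strong made up 0.938% of that list. Replicate 2 had no peak at the promoter, and its only peak in the window, at −6632 bp, had a −log10 p of 1.69, a value that 95.0% of its list reached. RNAP2 peaks covered the TSS in both replicates, with 6.14 and 9.47, and their summits lay 104 and 85 bp downstream of the first TSS. All other *Coq10b* peaks were weak. The remaining 4 BMAL1 peaks, which lay in introns and came from the long list of replicate 2, had values from 1.40 to 2.40, and the remaining 4 RNAP2 peaks had values from 1.99 to 2.50. The shared site of *Coq10b* thus rests on both BMAL1 lists and REV-ERBα replicate 1, and since a peak in all 3 remaining lists was asked for when a list was left out, it is lost by construction (0 sites) without any of these.

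*Klf9* showed the opposite balance, with REV-ERBα at 2 places in both replicates and BMAL1 in no region. The stronger REV-ERBα region, from 23133966 to 23136996, lay upstream of the gene and its strengths were 5.45 (replicate 1) and 6.73 (replicate 2). Its 3031 bp compare with a median width of 810 bp over all REV-ERBα regions. The second, from 23140819 to 23141738 at the promoter, had 4.41 and 2.94. With a −log10 q of at least 1.3 asked of both lists, 0 REV-ERBα regions were left at *Klf9*. With a −log10 p of at least 3, or with summits within 250 bp asked for instead of overlap, 1 was left. The gene ranked number 309 of the 975 genes with a REV-ERBα region by its strongest region.

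At the *Klf9* promoter no BMAL1 peak was called in either list, although the E-box CACGTG lies there. It starts at −323 bp from the TSS and at −73 and −24 bp from the REV-ERBα summits of replicates 1 and 2. CACGTG was found within 100 bp of the strongest summit in 3.40% of all REV-ERBα regions, and CAGCTG, its neighbour at −330 bp, in 12.7%. The core motif GGTCA was not found within 100 bp of the strongest summit of either *Klf9* region, against 30.6% of all REV-ERBα regions. That these letters are absent from the window says nothing on binding outside it.

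The upstream *Klf9* site coincided with the start of the lincRNA gene 2410080I02Rik. The only BMAL1 peak there, from replicate 1, had a −log10 p of 4.13, which 1.99% of its list reached, and 2.59-fold enrichment. Its summit lay 45 bp downstream of the lincRNA start, and the REV-ERBα summit of replicate 2 lay 52 bp downstream of it, 7 bp from the BMAL1 summit. The REV-ERBα summit of replicate 1 was farther off, at 1062 bp. BMAL1 replicate 2 had no peak there, although its list is the longest, and its only peak in the *Klf9* window was an intron peak of 1.66. RNAP2 peaks covered the lincRNA start in both replicates, with 11.3 in replicate 1 and 12.0 in replicate 2. Which of both genes the upstream peaks belong to cannot be told from the lists. The shared site of *Klf9* thus rests on BMAL1 replicate 1 and both REV-ERBα lists, and by the same rule is lost (0 sites) without any of these. With a −log10 q of at least 1.3 the shared sites of *Klf9* and *Coq10b* are both lost (0 sites each). With summits within 250 bp that of *Klf9* is lost (0 sites) and that of *Coq10b* is kept (1 site).

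Among the 3 genes, *Klf9* had the strongest RNAP2 region by the weaker replicate. Its promoter region had 18.9 and 19.8, number 239 of 10752 RNAP2 regions, against 20.9 and 7.0 for *Mylk4* and 6.14 and 9.47 for *Coq10b*. In replicate 1 alone *Mylk4* was highest, so the order of these genes is not the same in both replicates. When the *Klf9* body was cut into 10 equal parts, RNAP2 peaks were found in 1 part in replicate 1 and in 2 parts in replicate 2.

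**Figure D1:**
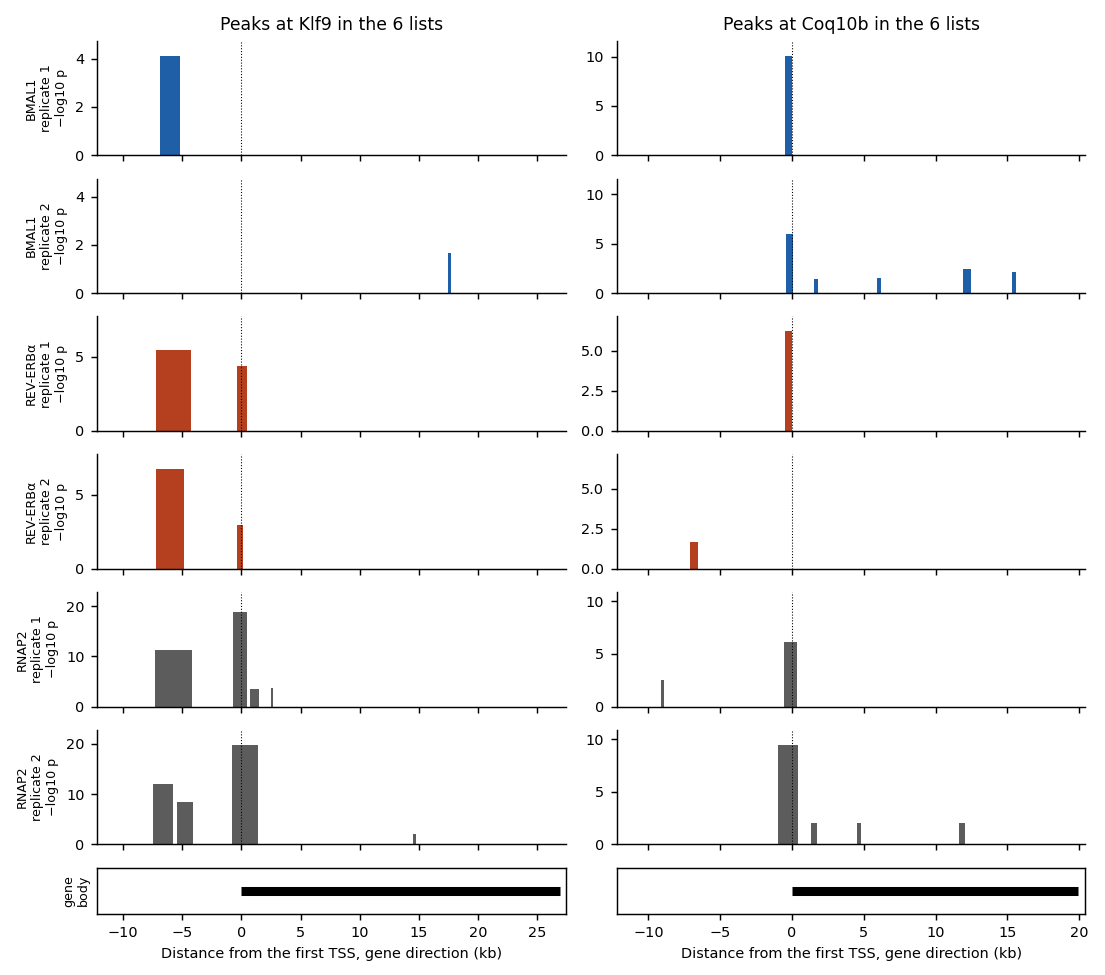
Peaks at *Klf9* (left) and *Coq10b* (right) in the 6 lists, by distance from the first TSS in kb (x axis, negative upstream) and −log10 p (y axis, scaled per factor), with 1 bar per peak as wide as the peak and the gene body as a black line. At *Klf9* REV-ERBα and RNAP2 peaks stand at the promoter and upstream in both replicates and BMAL1 upstream in replicate 1 only, whereas at *Coq10b* BMAL1 reached 10.1 and 5.99 at the promoter and REV-ERBα 6.23 in replicate 1 only.

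*Mylk4* differed from both in that REV-ERBα peaks tiled the whole gene. REV-ERBα had 31 peaks in the *Mylk4* window in replicate 1 and 37 in replicate 2, or 33.3 and 39.7 per 100 kb, where the whole lists held 1.06 and 1.10 per 100 kb. Together the peaks covered 57.7% and 53.5% of the window, against 0.588% and 0.543% of the genome. BMAL1 peaks covered 10.4% and 9.02% of the window and RNAP2 peaks 9.43% and 5.17%. Peaks of both REV-ERBα replicates covered 34587 bp, which is 64.4% of the bases of replicate 1 and 69.4% of those of replicate 2. These shares are to be read against the 53.5% and 57.7% of the window that the other replicate covered. The BMAL1 replicates shared 1818 bp, 18.8% and 21.6% of their bases, where the other replicate covered 9.02% and 10.4% of the window.

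The REV-ERBα peaks lay mostly in the gene body. In the body 64.2% and 59.4% of the bases were under REV-ERBα peaks, in an upstream flank of the same 83121 bp 1.95% and 0.487%, and in the downstream flank 3.64% and 3.90%. At the 3′ end a strong region, from 32698847 to 32701554, ran past the end of the gene into this flank. When the body was cut into 10 equal parts, each part was covered to between 42.2% and 83.3% in replicate 1 and between 36.3% and 71.8% in replicate 2, with no part free of peaks. RNAP2 was distributed otherwise. The first part, which holds the start of the gene, was covered to 69.0% and 40.4%, the second to 9.68% and 5.45%, and no later part to more than 3.81% in either replicate. BMAL1 covered from 0 to 24.6% of a part in replicate 1 and from 0 to 23.0% in replicate 2.

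**Figure D2:**
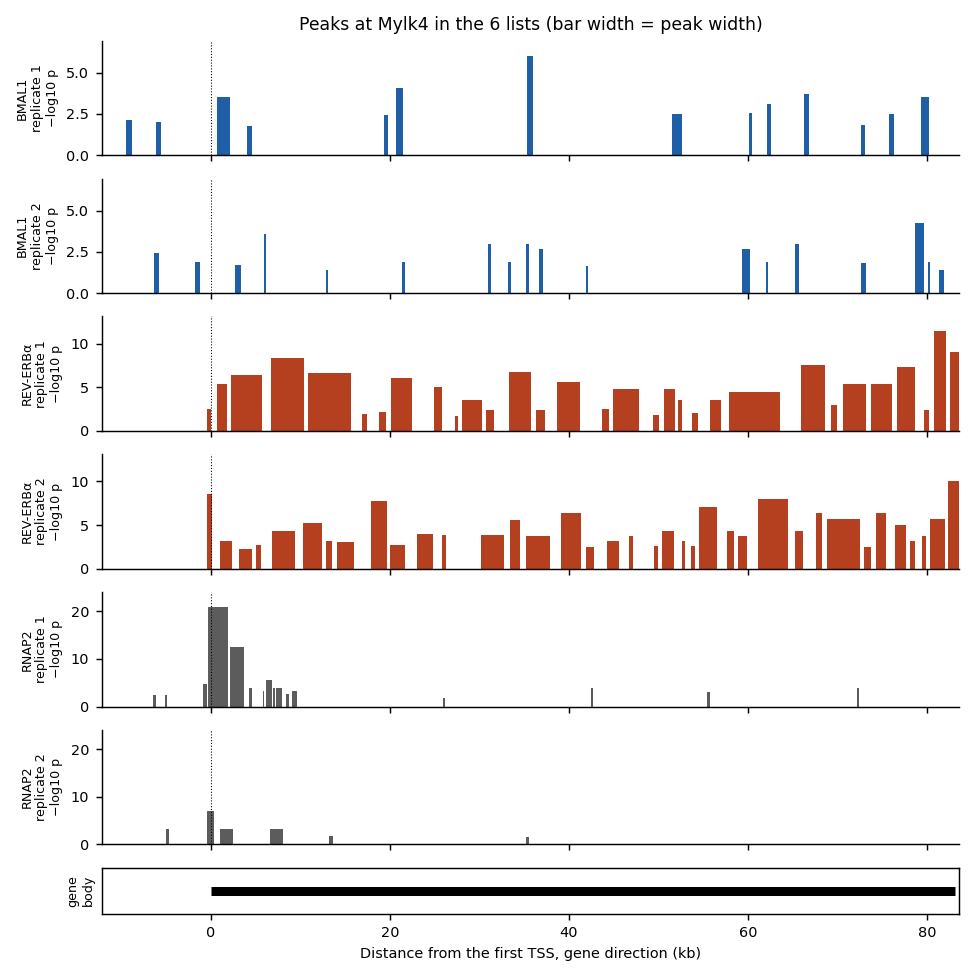
Peaks at *Mylk4* in the 6 lists, by distance from the first TSS in the direction of the gene in kb (x axis) and −log10 p (y axis, scaled per factor), with 1 bar per peak as wide as the peak and the gene body as a black line. The 31 and 37 REV-ERBα peaks run from the TSS to the 3′ end in both replicates, RNAP2 peaks gather near the TSS, and BMAL1 peaks are scattered.

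**Figure D3:**
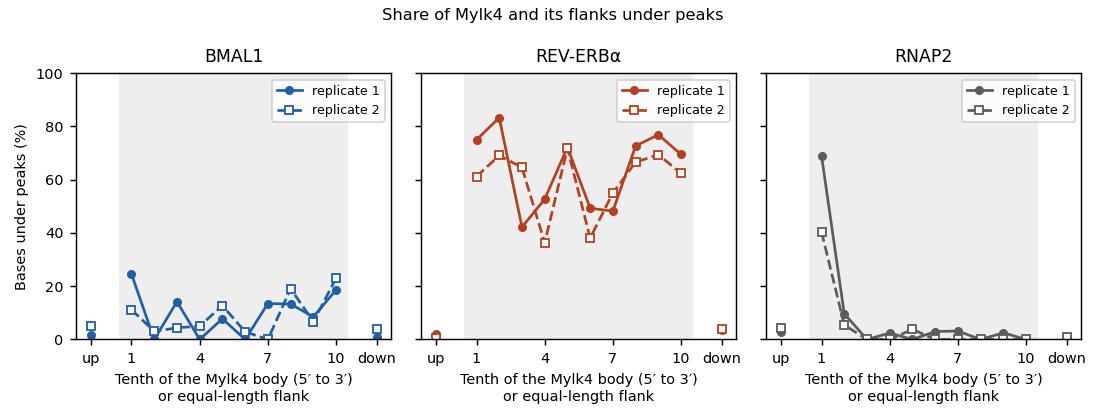
Share of bases under peaks in each of 10 equal parts of the *Mylk4* body, from the 5′ to the 3′ end (grey area), and in flanks of the same length as the body on each side, for replicate 1 (filled circles) and replicate 2 (open squares). REV-ERBα covers from 36.3% to 83.3% of every part and at most 3.90% of either flank, while RNAP2 falls after the first part.

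Few genes were covered by REV-ERBα to this degree. The median protein-coding gene had 0% of its window under REV-ERBα peaks in the less covered replicate and the 99th percentile was 3.65%, against 53.5% for *Mylk4*, which was number 5 of 21938. The genes above it, *Myh4*, *Atp2a1*, *Tpm1* and *Nmrk2*, and the genes just below, *Tnnt3*, *Pvalb* and *Ckm*, all chosen for naming after their values were seen, include abundant contractile and metabolic genes of fast muscle. Their RNAP2 shares were higher than that of *Mylk4* in both replicates. *Myh4*, the fast IIB myosin heavy chain, had 74.9% and 76.7% of its window under REV-ERBα peaks but also 68.2% and 71.7% under RNAP2 peaks. *Ckm*, the muscle creatine kinase, had 41.7% and 45.7% against 47.6% and 47.7%. In *Mylk4* the REV-ERBα share was 10.4 times the RNAP2 share, each taken from the less covered replicate, where the ratio was from 0.734 to 2.24 for 8 of the other genes in the first 10, *Rabep2* being the highest, and the predicted gene Gm21149 had 32.5% for REV-ERBα and no RNAP2 peak in its window.

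Of 23 genes with at least 20% of the window under REV-ERBα peaks in both replicates, 3 had an RNAP2 share as low as that of *Mylk4* or lower. They were *Mylk4*, the giant sarcomere gene *Ttn* (REV-ERBα 22.1% and 27.3%, RNAP2 2.73% and 3.31%, ratio 8.08) and the predicted gene Gm21149. *Mylk4* and *Ttn* were also the only genes among the 23 with a window of at least 93121 bp. By number of REV-ERBα regions *Ttn* came first with 49 and *Mylk4* second with 22, followed by *Pfkfb3* with 9. *Mylk4* thus held 1.74% of the 1263 REV-ERBα regions of the genome. For BMAL1, *Tpm1* came first with 8 regions and *Mylk4* second with 7. The REV-ERBα and RNAP2 lists come from different times of day and antibodies, and what part gene length has in the difference was not tested. Input coverage of these genes was not analysed here.

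**Figure D4:**
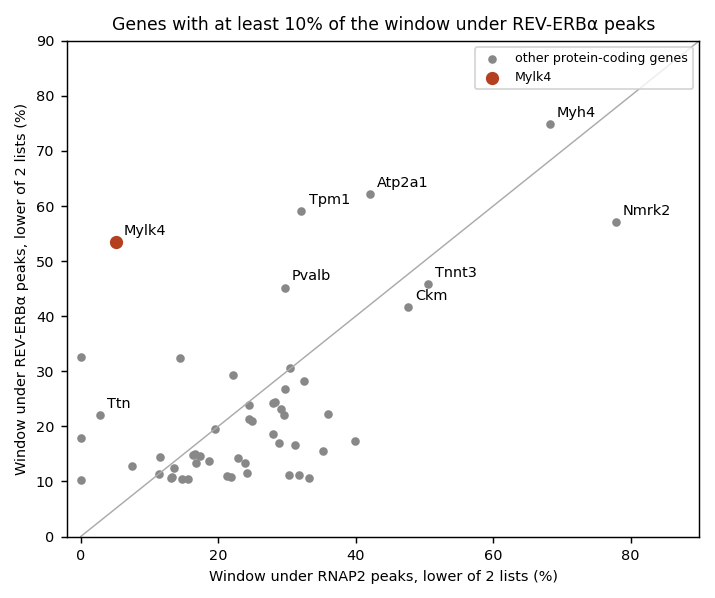
Share of the gene window under RNAP2 peaks (x axis) and REV-ERBα peaks (y axis), each in the less covered of 2 replicates, for the protein-coding genes with at least 10% under REV-ERBα peaks; the line marks equal shares. *Mylk4*, at 5.17% and 53.5%, lies far above the line, while *Nmrk2*, *Tnnt3* and *Ckm* lie below it.

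Within *Mylk4* the 22 REV-ERBα regions varied in strength. The lower −log10 p of the replicates ran from 1.80 to 9.0 with a median of 3.80, against a median of 2.50 over all REV-ERBα regions. The replicates did not differ in one direction, since 11 regions were stronger in each. Their widths ran from 551 to 9338 bp, with a median of 2466 bp. The strongest by the weaker replicate was the region at the 3′ end of the gene, with 9.0 and 10.1, and its neighbour, from 32701848 to 32703611, had 11.4 and 5.65. The widest, from 32767957 to 32777294, spans the start sites of shorter transcripts and had 8.40 and 5.25. By strongest summit 16 regions lay in introns, 2 in exons outside annotated UTRs, 2 in exons with an annotated UTR, 1 upstream and 1 just past the 3′ end of the gene. Of the 31 and 37 peaks, 9 and 10 had a q-value under 0.05.

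At the *Mylk4* promoter the replicates were uneven. The REV-ERBα region from 32783821 to 32784371 had 2.50 in replicate 1 and 8.56 in replicate 2. The core motif GGTCA printed above starts 27 bp from the summit of replicate 2 and at −137 bp from that of replicate 1 (negative towards lower coordinates). GGTCA was found within 100 bp of the strongest summit in 10 of the 22 *Mylk4* REV-ERBα regions and in 30.6% of all such regions, and the longer REV-ERB/ROR monomer site in 0 of the 22 and 0.158% of all. In regions as wide as these, 100 bp around 1 summit is a small part of the bases. RNAP2 at the start of the gene had 20.9 in replicate 1 and 7.0 in replicate 2, in a region of 4100 bp from 32780238 to 32784337.

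BMAL1 at *Mylk4* was weaker and less regular than REV-ERBα. There were 14 BMAL1 peaks in replicate 1 and 18 in replicate 2, none with a q-value of 0.05 or less, or 15.0 and 19.3 per 100 kb against 1.27 and 6.52 in the whole lists. The gene was thus denser in BMAL1 peaks than the genome by more in replicate 1 than in replicate 2. The lower −log10 p of the 7 BMAL1 regions ran from 1.81 to 3.54 with a median of 2.00, close to the 1.87 of all BMAL1 regions. The highest single value in the window was 6.04, at the intron site printed above, where replicate 2 had 2.98. The shared site at the 3′ end, from 32698847 to 32701554, runs past the window. Its BMAL1 peaks, 3.24 in replicate 1 and 7.11 in replicate 2, lie outside the window and were not counted for *Mylk4*. The region with the highest value in its weaker replicate, from 32703611 to 32705345 near the 3′ end, had 3.54 and 4.25 and was number 57 of 2742. CACGTG was found within 100 bp of the strongest summit in 0 of the 7 regions, CACGTT in 1 (2.52% of all BMAL1 regions) and GGTCA in 3 (25.2% of all). The general E-box form CANNTG was found in 1 of the 7, where 65.2% of all BMAL1 regions had it, and CAGCTG in 0 (7.08% of all).

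The BMAL1 peaks of *Mylk4* mostly fell under REV-ERBα peaks, but so did most of the gene. Of the 14 BMAL1 peaks of replicate 1, 12 overlapped a REV-ERBα peak of either replicate, and of the 18 of replicate 2, 15 did. A wide peak meets an overlap of 1 bp easily, so summits are set against the share of bases. BMAL1 summits lay under a REV-ERBα peak of either replicate in 12 of 14 and 14 of 18 cases, where such peaks covered 74.1% of the window. Under REV-ERBα peaks of both replicates lay 5 of 14 and 9 of 18 summits, where 37.1% of the window was covered in both. Of the 12 shared sites, 8 had peaks in all 4 lists, among them the site at the 3′ end, whose BMAL1 peaks lie outside the window. The sites were up to 9338 bp wide, so a BMAL1 peak could lie far from a REV-ERBα summit and still share its site. When peaks had to have summits within 250 bp instead of overlapping, 4 shared sites were left at *Mylk4*, together with 4 BMAL1 and 8 REV-ERBα regions. When the remaining lists were merged anew without REV-ERBα replicate 2, 7 sites had a peak in all of them. Without each of the other lists there were 8 to 10 such sites.

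Against the clock genes, the 3 genes were weak in BMAL1. In REV-ERBα *Mylk4* and *Klf9* lay within the range of the clock genes, *Klf9* near its lower end and through its upstream site only. The strongest BMAL1 peak near a TSS (10 kb) was 10.1 and 5.99 at *Coq10b*, 3.54 and 3.60 (at separate sites) at *Mylk4* and 4.13 and 0 (no peak) at *Klf9*. At the BMAL1-driven genes *Per1*, *Per2*, *Ciart*, *Nr1d1* and *Dbp* the values were 15.1 to 36.5 in replicate 1 and 5.68 to 31.6 in replicate 2, so that only replicate 2 of *Coq10b* fell inside the range of its replicate. For REV-ERBα, *Mylk4* had 8.40 and 8.56 and *Klf9* 5.45 and 6.73, within the 5.41 to 10.6 and 5.39 to 20.2 of the clock genes. The *Klf9* values are those of its upstream site at the lincRNA gene, which cannot be assigned to *Klf9* alone. Its promoter region had 4.41 and 2.94, below the clock genes' range in both replicates. *Coq10b* had 6.23 and 1.69. Of the clock genes, *Klf9* exceeded only *Per1* (5.41) in replicate 1 and only *Nr1d1* (5.39) in replicate 2. *Mylk4* exceeded *Per1*, *Per2* and *Nr1d1* in replicate 1 but only *Per1* and *Nr1d1* in replicate 2. The REV-ERBα values of *Mylk4* come from separate sites, 8.40 in the gene body and 8.56 at the promoter, where replicate 1 had 2.50, below the clock genes' range, and the *Coq10b* values also come from separate sites. The other muscle clock-dependent genes had higher REV-ERBα values than the 3 genes. *Dgat2*, which makes triglyceride, had REV-ERBα values of 21.4 and 19.9. Its BMAL1 values of 3.40 and 2.40 come from separate sites, since it had 0 BMAL1 regions. *Tcap*, a Z-disc protein gene, had BMAL1 values of 11.0 and 10.6 and REV-ERBα values of 21.2 and 22.7.

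**Figure D5:**
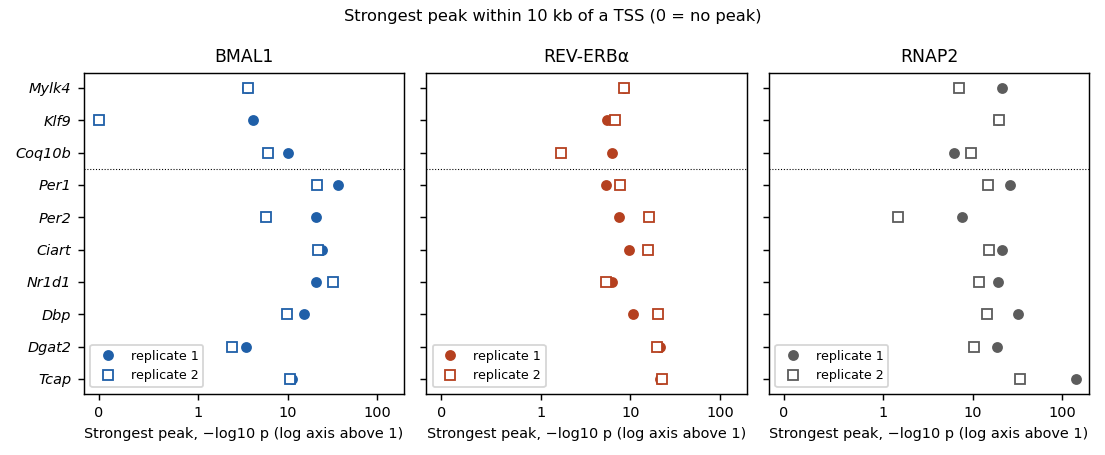
Strongest peak within 10 kb of a TSS in each list (x axis, −log10 p, logarithmic above 1; 0 means no peak) for *Mylk4*, *Klf9* and *Coq10b* (above the dotted line), 5 clock genes and 2 further muscle clock-dependent genes, for replicate 1 (filled circles) and replicate 2 (open squares). The BMAL1 values of *Mylk4* and *Klf9* lie below those of every clock gene shown in the same replicate, whereas their REV-ERBα values lie within the clock genes' range. These REV-ERBα values come from separate sites in the replicates for *Mylk4*, and from the upstream site, not the promoter, for *Klf9*.

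Among the relatives of *Mylk4*, 1 of the 3 other myosin light chain kinase genes had a REV-ERBα region and 0 a BMAL1 region, in sets too small to be read against the 4.44% and 6.81% of all genes. *Mylk2*, the skeletal muscle kinase that phosphorylates the regulatory light chain, had 1 REV-ERBα region within 10 kb of a TSS, with strongest peaks of 2.95 and 3.18, and 4 RNAP2 regions with strongest peaks of 12.6 and 13.0. Neither *Mylk* nor *Mylk3*, the smooth muscle and cardiac kinases, had a region of any factor. Of the 16 Krüppel-like factor genes other than *Klf9*, 11 had an RNAP2 region, 1 a REV-ERBα region (*Klf13*) and 2 a BMAL1 region (*Klf7* and *Klf12*), where 41.1%, 4.44% and 6.81% of all genes had one, so for BMAL1 and REV-ERBα the family was near the background. *Klf13*, a close relative of *Klf9*, had its REV-ERBα region in the gene body beyond 10 kb of a TSS, and the strongest REV-ERBα peaks in its window had 6.95 and 4.35. *Klf15*, another glucocorticoid-responsive factor, had RNAP2 values of 11.2 and 9.97, a REV-ERBα peak of 2.50 in replicate 1 only and a BMAL1 peak of 2.40 in replicate 2 only.

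Of 12 genes of coenzyme Q synthesis and function other than *Coq10b*, 9 had an RNAP2 region, 1 a BMAL1 region and 0 a REV-ERBα region. Of all genes 41.1% had an RNAP2 region. For BMAL1 and REV-ERBα the set was again near the 6.81% and 4.44% of all genes. The BMAL1 region was that of *Coq3*, a methyltransferase of the pathway, whose strongest peaks were 4.74 and 2.98. *Coq10a*, the paralog of *Coq10b*, had no BMAL1 peak in either list and RNAP2 values of 20.6 and 14.8, higher in both replicates than the 6.14 and 9.47 of *Coq10b*.

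Genes with the most similar pattern were found by the Euclidean distance between the 6 strongest peaks within 10 kb of a TSS, as log2(1 + −log10 p). For *Mylk4* these were *Fancm* (distance 0.615) and the neighbours *Eif4a1* and *Senp3* (0.658 each), which have the same peaks. For *Klf9* they were *Hnrnpu* (1.41), *Cox20* (1.43) and *Sf3b1* (1.48). The nearest to *Coq10b* was the clock gene *Bhlhe41* (1.57), with BMAL1 values of 7.11 and 5.22 and REV-ERBα values of 5.84 and 5.65, followed by *Nptn* (1.58) and *Ctsf* (1.59). This measure uses only the neighbourhood of TSSs and so leaves out the body of *Mylk4*.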

How the data were processed

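ChIP-seq for BMAL1 (ZT 4), REV-ERBα (ZT 8) and RNAP2 (ZT 4) was done on gastrocnemius, with 2 replicates each. According to the methods and the submitters' processing notes, the authors aligned reads to mm10 with BWA 7.12, dropped duplicates and reads with several alignments, brought replicates to a like depth by down-sampling and ran MACS2 2.1.1 per sample against input with a p-value threshold of 0.05. The deposited lists give each peak's fold enrichment (ratio of summit signal to local input background) and its −log10 p and −log10 q, as the authors' MACS2 run wrote them. A cutoff this lenient lists many weak peaks, and the read depth behind a peak is unknown. The input itself was not analysed here.

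Genes and TSSs were taken from GENCODE M21. Overlapping peaks (1 bp or more) were merged into regions. Ranks and shares were computed over all 21938 protein-coding genes. Sequences came from GRCm38 and the RefSeq promoter table, and motifs were searched on both strands within 100 bp of the strongest summit. The REV-ERB/ROR monomer site holds the motif GGTCA, so a match to it is also counted for that motif. Named genes were the 3 members, their families, 5 clock genes, *Dgat2* and *Tcap*, muscle and other cell markers, and for each member the 3 genes of most similar pattern; genes named by coverage or by number of regions were added after their values were seen. The members and lists were chosen with earlier results of these data known. Alternatives were stricter p and q thresholds, equal list lengths, summits within 250 bp, other windows and leaving out each replicate. Merging, counting and coverage were tested on simulated lists. Python 3.11.15, numpy 2.4.6, pandas 2.3.3, pysam 0.24.0 and matplotlib 3.10.9 were used.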

Additional observations from a re-analysis of the deposited data

How the results depend on the processing

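No paired analysis was possible because every result is a count or a share of peaks and comes from no test. The 3 genes together had 8 BMAL1, 24 REV-ERBα and 6 RNAP2 regions and 14 shared sites. The BMAL1 count was the least stable, with 5 at a −log10 p of at least 2, 2 at 3 or more, 0 at a −log10 q of at least 1.3, 3 with lists of equal length, 5 with summits within 250 bp and 2 within 10 kb of a TSS only. REV-ERBα regions fell to 3 at that q, to 9 with summits within 250 bp and to 5 near a TSS. Shared sites fell to 8 at a −log10 p of at least 3, 1 at that q, 5 by summits and 4 near a TSS. The RNAP2 count was 4 to 6 in these settings. Using 1 list of a factor gave 16 to 24 BMAL1, 34 to 40 REV-ERBα and 14 to 22 RNAP2 peaks, and leaving out a list gave 8 to 11 shared sites. The share of genes with a BMAL1 region was 0.356% at a −log10 p of at least 3, 1.45% with equal lists and 4.23% near a TSS. At that −log10 p it was 2.47% for REV-ERBα and 0.433% for a shared site, which was 0.839% with equal lists. CACGTG was found at 0 member regions within 50 bp of the summit and at 2 within 150 bp, for BMAL1 and for REV-ERBα alike, where it was 1 at 100 bp. The causes were not tested.

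The share of the *Mylk4* window under REV-ERBα peaks, 53.5% in the less covered replicate, was 46.6% at a −log10 p of at least 3, 19.1% at a −log10 q of at least 1.3 and 59.4% in the gene body alone, settings chosen after seeing the data, and 53.5% to 57.7% by which replicate was left out. *Mylk4* was number 5 of all genes at that −log10 p as well, and number 16 at that q.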
